A study of Rattus norvegicus with 14 samples.

Results

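Cone phototransduction genes encode the proteins that turn light into an electrical response in cone photoreceptors. The set was chosen by gene symbol, from the known role of each gene and not by a measured value, though with earlier results of these data known. It held the cone opsins Opn1sw and Opn1mw, the transducin subunits Gnat2, Gnb3 and Gngt2, and the phosphodiesterase subunits Pde6c and Pde6h. It also held the channel subunits Cnga3 and Cngb3 and the arrestin Arr3. Of these 10 genes, 9 were found among the 16472 genes of the expression table, each as 1 transcript, and Cngb3 was not analysed here. No other gene of the table overlapped the span of any of the 9.

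RNA was sequenced from pineal glands, retinas and mixed tissue of Sprague-Dawley rats, aged 6 to 8 weeks and held under a daily cycle of 14 h light and 10 h dark. Pineal glands and retinas were each collected at 6 zeitgeber times (ZT, hours after lights on), of which ZT1, ZT7 and ZT13 fell in the light phase and ZT15, ZT19 and ZT23 in the dark phase, as 1 library per tissue and time from a pool of 10 animals. The mixed tissue was a pool made at ZT7 and another at ZT19, each from 3 animals, in which equal amounts of RNA from 15 tissues were joined, including brain regions, heart, liver, kidney and the retina itself but not the pineal gland. No group carried a mutation or received an agent. The design asks which transcripts follow a daily rhythm, and the mixed pools were added to help find those that mark the pineal gland.

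In a cone, light changes the shape of the opsin, which activates transducin, a G protein of alpha, beta and gamma subunits. The alpha subunit releases the phosphodiesterase from its inhibitory subunit, cyclic GMP is broken down, the cyclic GMP-gated channel closes, and arrestin binds the opsin to end the signal. Rods use a parallel set of genes, and the mammalian pineal gland, whose cells share an origin with photoreceptors, expresses a number of photoreceptor genes although the adult gland is not known to sense light directly.

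Values are FPKM, fragments per kilobase of transcript and relative to all fragments of the library, which allow levels of different genes to be compared per length. Summed FPKM lay between 152281 and 212634 per library, 8852 to 11399 genes reached 1 FPKM, and 1 fragment in a transcript of 1 kb was worth an estimated 0.0216 to 0.0534 FPKM. The labels were borne out by tissue markers: Tph1, a serotonin-synthesis enzyme of pinealocytes, lay at 2968 to 3848 FPKM in pineal glands and at 0.359 to 0.522 FPKM in retinas, and Gnat1, the transducin alpha subunit of rods, at 0.944 to 1.60 FPKM in pineal glands and at 2294 to 3753 FPKM in retinas. The labels give no replicate at any time, so the 6 libraries of each tissue stood in for replicates. In the tissue comparisons each p-value rests on the spread between these libraries, time of day included. In the tests of time of day it rests on the spread left around a fitted 24-h cosine, or around the means of light, ZT15 and late dark. Except where a tissue was fitted alone, the groups of a fit shared 1 estimate of the spread. In such bulk samples fewer cells of a type and less RNA per cell cannot be told apart.

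In the pineal gland 4 of the cone genes were among the more abundant transcripts, while other members of the same pathway were near 0. Gngt2 ranked between place 2 and place 9 of all genes by FPKM in the 6 pineal libraries, Gnb3 between 5 and 8, Gnat2 between 20 and 34, and Pde6c between 78 and 180. In the retina the same genes ranked between 756 and 1256 for Gngt2, 284 and 432 for Gnb3, 578 and 943 for Gnat2, and 4554 and 5708 for Pde6c. The 9 genes together made up 1.27% to 1.45% of all FPKM in pineal libraries, 0.109% to 0.137% in retinal libraries and 0.0125% to 0.0131% in mixed tissue.

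**Figure D1:**
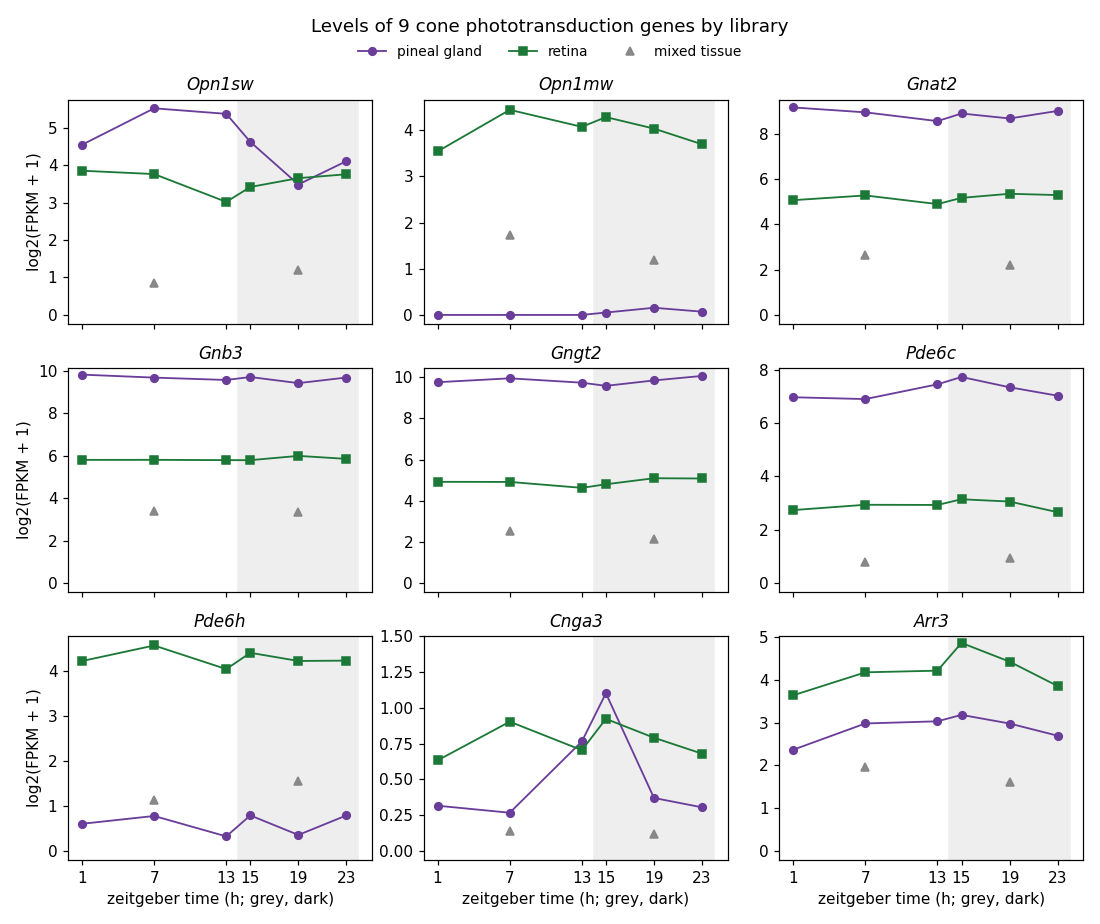
Level of each of the 9 cone genes, as log2(FPKM + 1), against zeitgeber time, with 1 point per library. Purple circles are pineal glands, green squares retinas and grey triangles mixed tissue, grey shading marks the dark, and the vertical scale differs between panels. Gnat2, Gnb3, Gngt2 and Pde6c lie above the retina at every time, and Opn1mw, Pde6h and Arr3 below it.

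Of the 9 genes, 8 passed the filter for testing (at least 1 FPKM in at least 2 libraries) and Cnga3 did not. All 8 differed between pineal gland and retina by limma on log2(FPKM + 1), at a Benjamini-Hochberg adjusted p under 0.05 over 11656 genes. Across all genes tested 68.9% were called in this comparison, 36.9% higher and 32% lower in the pineal gland, so a call by itself says little. The 5 members that were higher were Opn1sw, Gnat2, Gnb3, Gngt2 and Pde6c, and the 3 that were lower were Opn1mw, Pde6h and Arr3. The median of the absolute log2 difference was 3.76 over the 8 members, against 0.47 over all genes tested. These differences are on the log2(FPKM + 1) scale, which understates the change of genes with low values.

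The opsins, which absorb the light, split between the tissues. Opn1sw, the short-wavelength opsin (ultraviolet-sensitive in rats; rn4 chr4:56256846-56259986), had 22.3, 44.8, 40.3, 23.6, 10.2 and 16.2 FPKM in pineal glands in time order from ZT1 to ZT23, against 13.4, 12.6, 7.10, 9.68, 11.6 and 12.5 FPKM in retinas at the same times. The pineal gland was above the retina at every time but ZT19, and the ranges of the tissues overlapped. Its log2 difference between pineal gland and retina was 1.03 (SE 0.29, adjusted p = 0.00486 by limma). Opn1mw, the middle-wavelength opsin of most rodent cones (rn4 chrX:160095742-160115966), was listed at 0 in the pineal libraries of ZT1, ZT7 and ZT13 and at 0.0367, 0.114 and 0.0501 FPKM at ZT15, ZT19 and ZT23, against 10.6 to 20.7 FPKM in retinas, with a median of 15.6. The pineal values were within a few fragments of 0 and no retinal value came near them (log2 difference -3.96, SE 0.14, adjusted p = 1.6e-12 by limma). Opn1sw therefore made up 98.9% to 100% of cone opsin FPKM in pineal glands, and 31.0% to 55.8% in retinas.

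The promoters of the opsins are printed here because these genes of the same class lay on opposite sides of the tissue comparison. Each sequence is the 250 bases before the transcription start in RefSeq on the GRCr8 assembly, read 5′ to 3′ on the strand of the gene: chr4:58945826-58946075 on the minus strand for Opn1sw, and chrX:157056105-157056354 on the plus strand for Opn1mw. Capitals mark matches to a pair of motifs searched on both strands, TAATCC (reverse GGATTA), the core bound by the photoreceptor factors Crx and Otx2, and TATAAA (reverse TTTATA), a core of the TATA box.
Opn1sw: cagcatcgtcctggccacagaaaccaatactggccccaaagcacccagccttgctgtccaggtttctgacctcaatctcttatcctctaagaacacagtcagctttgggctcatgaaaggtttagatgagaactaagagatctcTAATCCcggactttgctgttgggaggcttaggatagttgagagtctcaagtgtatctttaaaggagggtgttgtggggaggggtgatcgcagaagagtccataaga
Opn1mw: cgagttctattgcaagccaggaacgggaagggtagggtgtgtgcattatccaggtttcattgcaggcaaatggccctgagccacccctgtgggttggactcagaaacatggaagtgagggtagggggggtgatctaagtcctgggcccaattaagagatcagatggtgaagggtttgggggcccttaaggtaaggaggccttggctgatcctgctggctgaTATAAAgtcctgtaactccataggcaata
Opn1sw held TAATCC on the sense strand, starting 106 bases before the start, and no TATAAA. Opn1mw held TATAAA on the sense strand, starting 29 bases before the start, and no TAATCC. Of 33469 promoters of the same length, 6.34% held TAATCC and 12.9% held TATAAA on either strand. The promoter table held 5 of the 10 genes, and among the other 3, Pde6h had 1 match to TTTATA, while Cnga3 and Arr3 had no match to either motif. Of the rod genes matched to these cone genes, 7 had a promoter in that table. Among them Gngt1, Pde6a and Cngb1 held TAATCC on either strand, and the others did not. All of these rod genes, with and without TAATCC, were lower in the pineal gland than in the retina by limma. These are matches of letters, not tested sites.

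The 3 transducin subunits were all high in the pineal gland. Gnat2, the alpha subunit that carries the signal to the phosphodiesterase (rn4 chr2:203652354-203661377), ranged from 377 to 573 FPKM in pineal glands with a median of 485, against 28.8 to 39.9 FPKM in retinas with a median of 36.4. Gnb3, the cone beta subunit (rn4 chr4:160957524-160963226), ranged from 689 to 910 FPKM in pineal glands with a median of 827, against 54.6 to 63.0 FPKM in retinas with a median of 55.2. Gngt2, the cone gamma subunit (rn4 chr10:84554318-84557459), ranged from 765 to 1068 FPKM in pineal glands with a median of 891, against 23.7 to 33.1 FPKM in retinas with a median of 29.2. The lowest pineal library was far above the highest retinal one for each subunit. The pineal mean was 13.4 times the retinal mean for Gnat2, 14.3 times for Gnb3 and 31.2 times for Gngt2. By limma the log2 differences were 3.70 for Gnat2 (SE 0.12, adjusted p = 3.82e-13), 3.81 for Gnb3 (SE 0.078, adjusted p = 4.87e-15) and 4.91 for Gngt2 (SE 0.11, adjusted p = 8.16e-15). The Gngt2 difference was the 20th largest among genes higher in the pineal gland.

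The balance between the subunits was not the same in the tissues. Gnb3 was 1.59 to 2.03 times Gnat2 in pineal glands and 1.46 to 1.90 times Gnat2 in retinas, so these ranges overlapped. Gngt2 was 1.51 to 2.26 times Gnat2 in pineal glands and 0.767 to 0.897 times Gnat2 in retinas, with no overlap. Transducin alpha also stood in another proportion to the opsins: Gnat2 was 9.35 to 39.7 times the summed cone opsins in pineal glands and 1.14 to 1.56 times in retinas. These are ratios of FPKM per library, given without a test.

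The phosphodiesterase subunits diverged. Pde6c, the catalytic subunit that hydrolyses cyclic GMP in cones (rn4 chr1:242459653-242515102), ranged from 118 to 210 FPKM in pineal glands with a median of 145, against 5.30 to 7.82 FPKM in retinas with a median of 6.63. The pineal mean was 23.2 times the retinal mean, and the log2 difference was 4.32 (SE 0.14, adjusted p = 3.4e-13 by limma). Pde6h, the inhibitory gamma subunit that holds the cone enzyme inactive in the dark (rn4 chr4:174009850-174014603), ranged from 0.258 to 0.739 FPKM in pineal glands, against 15.6 to 22.9 FPKM in retinas with a median of 17.8. The retinal mean was 34.3 times the pineal mean, and the log2 difference of pineal gland minus retina was -3.68 (SE 0.12, adjusted p = 5.72e-13 by limma). The level of Pde6h was therefore 0.00149 to 0.00613 times that of Pde6c in pineal glands, and 2.36 to 3.44 times in retinas. The rod inhibitory subunit Pde6g was not analysed here.

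Cnga3, the alpha subunit of the cone cyclic GMP-gated channel (rn4 chr9:36180295-36203098), was low in every library. It had 0.246, 0.205, 0.700, 1.14, 0.294 and 0.236 FPKM in pineal glands from ZT1 to ZT23, and 0.551, 0.870, 0.629, 0.895, 0.730 and 0.602 FPKM in retinas. The ranges overlapped, and without the filter the log2 difference between pineal gland and retina was -0.25 (SE 0.13, adjusted p = 0.107 by limma). Only the pineal library of ZT15 reached 1 FPKM.

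Arr3, the cone arrestin (rn4 chrX:88602647-88614721), had 4.16, 6.88, 7.16, 8.05, 6.87 and 5.46 FPKM in pineal glands from ZT1 to ZT23, and 11.4, 17.0, 17.5, 27.9, 20.4 and 13.4 FPKM in retinas. Every pineal library was below every retinal one, by less than for Opn1mw or Pde6h. Its log2 difference was -1.32 (SE 0.19, adjusted p = 1.46e-05 by limma), and the pineal mean was 0.358 times the retinal mean.

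**Figure D2:**
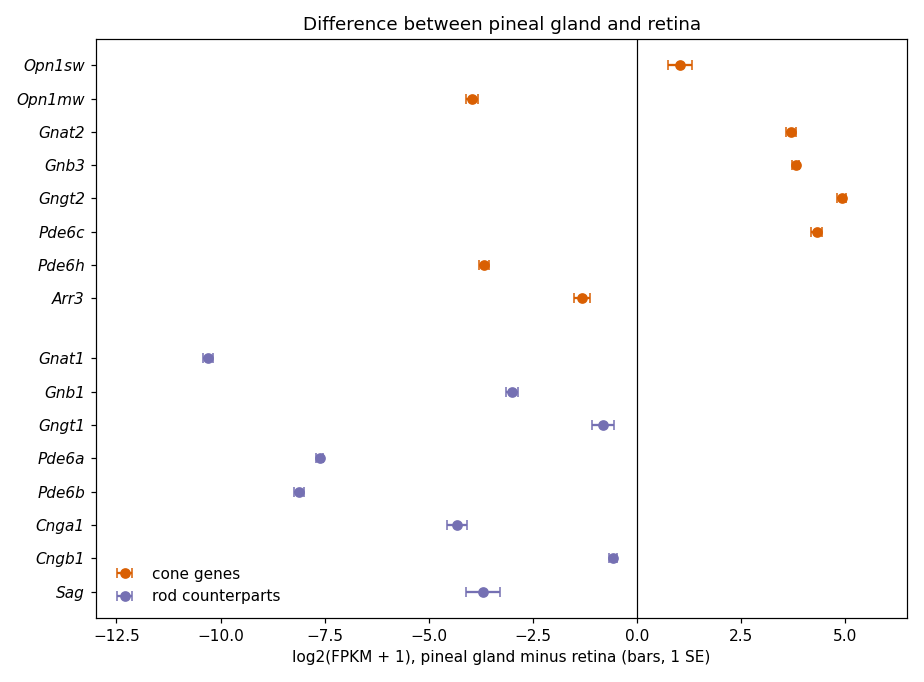
Difference of log2(FPKM + 1) between pineal gland and retina (pineal minus retina) for the 8 tested cone genes, above, and for 8 rod counterparts, below, with bars of 1 standard error of the limma fit. Points right of the line are higher in the pineal gland: 5 of the 8 cone genes lie there, up to 4.91 for Gngt2, and none of the rod genes, which reach -10.30 for Gnat1.

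Each cone gene was then set against its rod counterpart within the same library. All 8 rod counterparts analysed were lower in the pineal gland than in the retina by limma, from -0.58 for the channel subunit Cngb1 to -10.30 for Gnat1 on the log2 scale. Gnat2 was 99.7% to 99.8% of transducin alpha (Gnat2 plus Gnat1) in pineal glands, and 0.861% to 1.42% in retinas. The cone form was thus nearly the whole of this step in the pineal gland and a small part of it in the retina. Pde6c was 98.5% to 99.2% of catalytic phosphodiesterase FPKM (Pde6c plus Pde6a and Pde6b) in pineal glands, and 0.679% to 0.953% in retinas. Gnb3 was 97.1% to 98.7% of Gnb3 plus Gnb1 in pineal glands, and 26.7% to 35.6% in retinas, where Gnb1, the rod beta subunit, is also used by many other cells.

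The other steps were mixed or mostly of the rod form. Gngt2 was 42.4% of Gngt2 plus Gngt1 in the pineal library of ZT15 and 71.3% in that of ZT23, against 1.54% to 4.39% in retinas. The rod gamma subunit Gngt1 had 430 to 1040 FPKM in pineal glands, against 715 to 1620 FPKM in retinas. Cnga3 was at most 7.21% of Cnga3 plus Cnga1 in pineal glands, with a median of 3.96%, and 0.246% to 0.391% in retinas. Arr3 was 2.23% to 8.27% of Arr3 plus Sag, the rod arrestin, in pineal glands, and 0.630% to 1.56% in retinas. The pineal gland therefore held cone forms at the transducin alpha and beta subunits and the catalytic phosphodiesterase. It held mainly rod forms at the channel alpha subunit and arrestin. The channel beta subunit was not compared, as Cngb3 was not analysed.

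**Figure D3:**
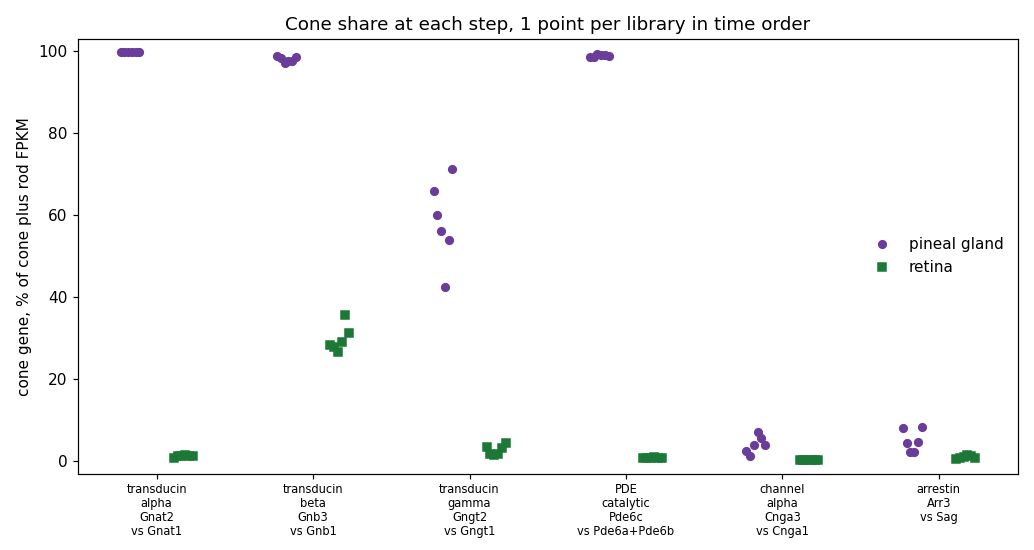
Share of the cone gene in cone plus rod FPKM at each step, in percent, with 1 point per library in time order from ZT1 to ZT23. Purple circles are pineal glands and green squares retinas. Pineal points lie above 90% at 3 steps, between 42.4% and 71.3% at transducin gamma and under 10% at the channel alpha subunit and arrestin. Retinal points stay under 5% except at transducin beta.

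Most genes of the other phototransduction steps, which were not split into cone and rod forms here, were lower in the pineal gland. Of 13 tested genes of shared phototransduction steps (cyclases, their activators, recoverin, RGS proteins, exchangers and others), 1 was higher in the pineal gland than in the retina by limma, the exchanger Slc24a2 (log2 difference 1.32), and 10 were lower, the largest change being that of Rcvrn, the calcium sensor recoverin (-8.32). Of 9 tested transcription factors of cones and photoreceptors, 2 were higher and 4 lower in the pineal gland. The higher ones were Rxrg, a retinoid receptor of cones (46.5 to 87.9 FPKM in pineal glands, at most 1.72 FPKM in retinas, log2 difference 4.68), and Neurod1 (0.50). Nrl, which directs photoreceptor precursors to the rod fate, lay at 0 to 0.208 FPKM in pineal glands and at 115 to 162 FPKM in retinas (-7.05). The other lower factors were Thrb, a thyroid hormone receptor of cones, Onecut1 and Sall3. Thrb had 1.16 to 8.02 FPKM in pineal glands and 7.54 to 10.3 FPKM in retinas. Onecut1 had at most 0.0472 FPKM in pineal glands, against 1.51 to 2.41 FPKM in retinas. Sall3 had at most 0.145 FPKM in pineal glands, against 1.03 to 1.39 FPKM in retinas. Crx, the homeobox factor of photoreceptors and pinealocytes, had 160 to 275 FPKM in pineal glands and 208 to 270 FPKM in retinas (log2 difference -0.17, adjusted p = 0.277), so its ranges overlapped.

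The tested markers of other retinal cells were lower in the pineal gland, apart from the bipolar cell markers, which were mixed. Of the 5 bipolar cell markers, 1 was higher and 2 lower in the pineal gland than in the retina, with a summed level of 91.8 to 139 FPKM in pineal glands and 236 to 308 FPKM in retinas. Of the tested amacrine and ganglion cell markers 5 of 5 were lower, as were 3 of 3 Muller glia markers, 2 of 2 pigment epithelium markers and 2 of 2 lens markers. The retinal libraries held 32.2 to 584 FPKM of lens genes, the highest sum at ZT19. In the pineal libraries the rod gene Gnat1 reached at most 1.60 FPKM and Rpe65, which defines the pigment epithelium, 0.0793 FPKM. The rod counterparts were not all as low as Gnat1 there. Pde6a reached at most 1.65 FPKM and Pde6b 0.760 FPKM, but Sag had 46.9 to 350 FPKM and Gngt1 430 to 1040 FPKM. Cngb1 had 49.9 to 69.8 FPKM, Gnb1 11.4 to 23.1 FPKM and Cnga1 4.81 to 16.8 FPKM. The part of other cells in the retinal levels of the cone genes was not tested.

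Against the mixed tissue, 6 members were higher in the pineal gland and 2 lower by limma, where 64.8% of all genes tested were called, 19.8% higher and 45% lower. Gngt2 averaged 908 ± 107 FPKM in pineal glands (SD, n = 6), against 4.80 FPKM at ZT7 and 3.37 FPKM at ZT19 in the mixed pools. Its log2 difference of 7.49 was the 2nd largest among genes higher in the pineal gland, and Gnat2 (6.45), Pde6c (6.36) and Gnb3 (6.28) were the 6th, 7th and 8th largest. In the mixed pools of ZT7 and ZT19 Gnat2 had 5.25 and 3.66 FPKM, Gnb3 9.63 and 9.23 FPKM and Pde6c 0.748 and 0.908 FPKM. These 4 cone genes were thus among the strongest pineal-enriched transcripts of the table. Opn1sw, at 0.817 and 1.31 FPKM in the mixed pools, was higher by 3.57 in the pineal gland, and Arr3, at 2.93 and 2.05 FPKM in the mixed pools, by 1.08. Opn1mw and Pde6h fell below the mixed pools, in which the retina was 1 of 15 tissues. The log2 differences were -1.41 (adjusted p = 1.51e-05 by limma) and -0.73 (adjusted p = 0.00141 by limma). In the pools at ZT7 and ZT19 Opn1mw had 2.30 and 1.28 FPKM, and Pde6h had 1.19 and 1.96 FPKM. The part of the retina in these pool levels was not tested. With quantile normalization, under which the median log2 difference of all genes moved to 0.22 against -0.25 here, Opn1mw lost its call (-0.30, adjusted p = 0.175) and Pde6h turned to 0.43 (adjusted p = 0.0282). Without the mixed pool of ZT19 the call of Pde6h was lost as well (-0.52, adjusted p = 0.0559).

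In the retina all 8 tested members were higher than in the mixed tissue by limma, where 65% of all genes tested were called, 18.4% higher and 46.6% lower. The log2 differences were alike in size, from 2.04 for Pde6c to 2.94 for Pde6h. The mixed pools contained retina, and their mean level was 8.43% of the retinal mean for Pde6h, the lowest share, and 16.7% for Gnb3, the highest. Gnat1, the rod transducin alpha subunit, had a share of 10.5%.

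Over the day Opn1sw and Pde6c passed a test of rhythm in the pineal gland, and the call of Pde6c depended on the fit. Opn1sw had its peak in the light and Pde6c near lights off. A 24-h cosine was tested in each tissue by limma's moderated F test. In the pineal gland 2 of the 8 tested members passed, a share near that of all genes, of which 20.7% of 10416 did. Opn1sw was highest at ZT7 (44.8 FPKM) and ZT13 (40.3 FPKM), in the light, and lowest at ZT19 (10.2 FPKM), in the dark, 4.40 times apart. Its fitted cosine had a height of 2.08 between peak and trough on the log2 scale, with its peak at ZT8.36 (adjusted p = 0.00139 by limma). Pde6c had 124, 118, 173, 210, 161 and 129 FPKM from ZT1 to ZT23, so that it was highest at ZT15, just after lights off, and lowest at ZT7, 1.78 times apart. Its cosine had a height of 0.80 with its peak at ZT15.6 (adjusted p = 0.00896 by limma), and in a fit of the pineal libraries alone the adjusted p was 0.0515.

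The other members passed no test of rhythm in the pineal gland. Arr3 had a height of 0.62 (adjusted p = 0.12 by limma, and 0.042 without the retinal library of ZT13), and like Pde6c it was highest at ZT15. The transducin genes varied little: the highest library was 1.52 times the lowest for Gnat2, 1.32 times for Gnb3 and 1.40 times for Gngt2, with adjusted p-values of 0.197, 0.493 and 0.407 by limma. Cnga3 reached its highest value, 1.14 FPKM, at ZT15, and without the filter its height was 0.69 (adjusted p = 0.0699 by limma). Among rod counterparts 4 of 8 passed in the pineal gland, with Sag the largest (height 2.79). Of the genes of shared phototransduction steps 6 of 13 passed, with Pdc, phosducin, the largest (3.21). Of the factors 3 of 9 passed, with Thrb, a thyroid hormone receptor of cones, the largest (1.60).

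In the retina none of the 8 members passed the test of rhythm by limma, where 1.02% of all genes did, and 3 of them had an unadjusted p under 0.05 (Opn1sw, Opn1mw and Arr3), as had 2251 of the 10416 genes tested. Arr3 had the largest height, 0.90, with 27.9 FPKM at ZT15 against 11.4 FPKM at ZT1 (adjusted p = 0.111). Retinal Opn1sw was lowest at ZT13, at 7.10 FPKM, a time at which the pineal level was near its highest. Retinal Opn1mw was highest at ZT7, at 20.7 FPKM, and lowest at ZT1, at 10.6 FPKM. Pde6c and Cnga3, like Arr3, had their highest retinal value at ZT15, as they had in the pineal gland.

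The difference of rhythm between the tissues was tested itself, and 1 of the 8 members passed by limma, where 4.95% of all genes did. This was Opn1sw, with a height of 2.32 for the difference between its pineal and its retinal cosine (adjusted p = 0.0107). For Pde6c the height of the difference was 0.49 (adjusted p = 0.33) and for Arr3 0.36 (adjusted p = 0.762), so a rhythm particular to the pineal gland was not shown for them.

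**Figure D4:**
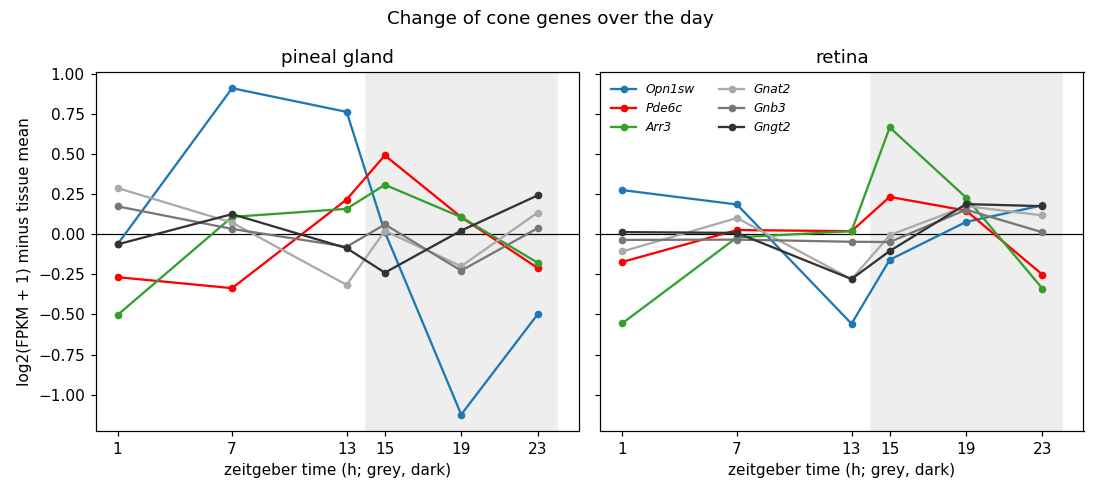
Change over the day of 6 cone genes, as log2(FPKM + 1) minus the mean of the gene in that tissue, against zeitgeber time, in pineal glands (left) and retinas (right). Grey shading marks the dark and each point is 1 library. Pineal Opn1sw is high at ZT7 and ZT13 and low at ZT19, Arr3 and Pde6c are highest at ZT15 in both tissues, and the transducin genes stay close to 0.

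The late dark (ZT19 and ZT23) was compared with the light (ZT1, ZT7 and ZT13), with ZT15 kept apart. In the pineal gland Opn1sw averaged 13.2 ± 4.28 FPKM in late dark (SD, n = 2) and 35.8 ± 11.9 FPKM in light (SD, n = 3), and no late dark library reached the lowest light library. It was 1 of 8 members called by limma, where 7.28% of all genes were, 3.04% higher and 4.23% lower in late dark, and it fell by 1.35 on the log2 scale (SE 0.31, adjusted p = 0.0278). The call did not hold without the pineal library of ZT7 (adjusted p = 0.106), ZT13 (0.0782) or ZT19 (0.205), nor with ZT15 counted as dark (0.324), without the filter (0.0765) or in the pineal libraries alone (0.0894). The other pineal differences between late dark and light lay between -0.14 for Gnb3 and 0.14 for Gngt2 and did not pass, and with quantile normalization Gngt2 was called at 0.91 (adjusted p = 0.0215). In the retina 0 of 8 members were called by limma between late dark and light, none at an unadjusted p under 0.05 either (1238 of 10416 genes were), where 0.0096% of all genes were called, and the differences lay between -0.15 for Opn1mw and 0.27 for Gngt2. For the difference of the late dark effect between the tissues 0.71% of all genes (0.566% with a higher and 0.144% with a lower effect in the pineal gland) and 0 of 8 members were called by limma, with 1 of the 8 at an unadjusted p under 0.05, as were 1156 of the 10416 genes, a like share. That member was Opn1sw, at -1.51 (adjusted p = 0.18, and 0.0194 without the pineal library of ZT1).

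Genes of the most similar profile were sought by the smallest root mean square difference of log2(FPKM + 1) over the 12 pineal and retinal libraries, each profile centred on its own mean, among 10416 genes, and the nearest ones are named. Gnat2 and Gnb3 shared a neighbour, Fndc7, at a distance of 0.202 from Gnat2 and 0.142 from Gnb3, and their other neighbours were Nek11 (0.188 from Gnat2) and Serpine2 (0.143 from Gnb3). Gngt2 lay nearest to Itgb2 (0.183), an integrin subunit of white blood cells and microglia, and to Dpt (0.231). Pde6c lay nearest to Nmnat2 (0.202), an enzyme of NAD synthesis that averaged 130 FPKM in pineal glands and 5.73 FPKM in retinas. Of the members lower in the pineal gland, Opn1mw lay nearest to Sebox (0.139) and to Gabrr2, a subunit of the retinal GABA-C receptor (0.176). Pde6h lay nearest to Elovl4 (0.117), which makes very long chain fatty acids in photoreceptors, and to Drd2 (0.143), and Arr3 to Capn3 (0.157) and Gamt (0.228). The tissue difference sets most of each such profile.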

How the data were processed

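Per the submitters' processing notes, reads were handled with TopHat 1.3.1 and Cufflinks 1.2.0 on the rn4 build; their settings are not given in the sources used here. The labels' protocols describe poly(A)-enriched RNA, random primers and paired-end reads, with no word on strand. The authors deposited FPKM per transcript. FPKM is relative to all fragments of a library, so very abundant transcripts lower the others, and depth could only be estimated, from the lowest values of olfactory receptor genes. Here FPKM was summed per gene ID, and log2(FPKM + 1) was tested with limma 3.58.1 in R 4.3.3 (moderated tests with a trend of variance on level, two-sided, Benjamini-Hochberg adjustment over all genes tested, checked on simulated data). The tissue fit had 14 libraries and 11 residual degrees of freedom. The fits of time of day had 12 libraries and 6. Coordinates are rn4, 1 added to each start. Promoters are from RefSeq (GRCr8). Alternatives were a pseudocount of 0.1, no filter, quantile or median ratio scaling, no trend, a block, other groupings and leaving out each library. The named genes were the members, genes picked from the lists and the 2 nearest genes of most members. Of the factors, the 6 called between pineal gland and retina were named, and Crx, which was not called. Members and gene lists were chosen with earlier results of these data known. Some genes of these lists are not reported here.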

Additional observations from a re-analysis of the deposited data

Results flagged for a closer look

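Gnb3 in the retina stood out at ZT19, at 63.0 FPKM, while the other 5 retinal libraries lay between 54.6 and 57.0 FPKM. The gap to the nearest library was 0.713 of the whole range, above Dixon's critical value for 6 libraries. It was the only gap past the limit among 18 groups checked, and chance flags about 1 in 20. That library also held the highest sum of lens genes, 584 FPKM, whose part in the value was not tested.

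The rhythm of Opn1sw differed between pineal gland and retina (adjusted p = 0.0107 by limma), with 17 alternatives between 0.00419 and 0.0423. In the pineal gland 44.8 FPKM at ZT7 and 10.2 FPKM at ZT19 were the extremes, and in the retina 13.4 FPKM at ZT1 and 7.10 FPKM at ZT13.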

How the results depend on the processing

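The 8 calls between pineal gland and retina and the 8 between retina and mixed tissue held under all 21 alternatives tried for each. Against mixed tissue, quantile normalization left 0 members lower in the pineal gland (2 here), with Pde6h at 0.43, and leaving out each library gave 1 to 2, the 1 being without the mixed pool of ZT19. Fitting the pineal libraries alone left 1 rhythmic member and 535 rhythmic genes (2 and 2160 here), and leaving out each library gave 889 genes (without pineal ZT23) to 2620 (without pineal ZT7). Retinal rhythmic genes, 106 here, were 64 without the filter, 58 with a pseudocount of 0.1, 179 with quantile normalization, 781 in the retina alone, and 12 (without retinal ZT1) to 415 (without pineal ZT19). Genes whose rhythm differed, 516 here, were 324 without the filter and 178 (without retinal ZT23) to 828 (without pineal ZT7).

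In the pineal late dark, members lower in late dark were 0 with ZT15 grouped as dark, without the filter and in the pineal gland alone, and 0 to 1 on leaving out each library, and quantile normalization gave 1 member higher. The 758 genes called were 0 with ZT15 as dark, 477 without the filter, 121 in the pineal gland alone, and 163 (without pineal ZT19) to 1600 (without pineal ZT1). In the retina, 1 gene here, there were 0 with ZT15 as dark, 5 without the filter, 0 with a pseudocount of 0.1, and 0 to 74, the most without ZT1. For the difference of late dark effects, 74 genes here, there were 0 with ZT15 as dark, 12 without the filter, and 7 (without retinal ZT19) to 384 (without pineal ZT1), and 0 to 1 members. The causes were not tested.

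Scaling moved the split of higher and lower calls among all genes. It was 2306 and 5243 for pineal gland against mixed tissue, 3540 and 4553 with median ratio scaling, and 5281 and 3474 with quantile normalization. For retina against mixed tissue it was 2148 and 5434, 3768 and 4350, and 5213 and 3540 in that order. For the pineal late dark it was 317 and 441, 515 and 262, and 381 and 244, and for the difference of late dark effects 59 and 15, 55 and 28, and 41 and 21. The median log2 difference of all genes was -0.25 for pineal gland against mixed tissue, -0.30 for retina against mixed tissue, -0.12 for the pineal and -0.11 for the retinal late dark.

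The labels do not pair the libraries. Deviations at the same time of day correlated between the tissues at 0.0491 (ZT1) to 0.27 (ZT23) across genes, and 4 of 6 pineal libraries correlated best with the retina of their own time. With time of day as a replicate block, 5 members were higher and 3 lower in the pineal gland than in the retina, as without it, and 8226 genes were called, against 8030. Pineal Opn1mw, at most 0.114 FPKM, rests on few fragments.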
